A study of Mus musculus with 4 samples.

Results

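The comparison described here is the one between adult bone marrow progenitors labelled as lacking Ezh2 and their wild-type counterparts. Every gene whose probe gave a signal well above background on at least 1 of the 2 bone marrow arrays was compared, which left 15275 genes of the 17663 detected on at least 1 of the series' 4 arrays. The cells were erythrocyte/megakaryocyte progenitors (MEP) of adult mice on a C57BL/6 background, labelled wild type on 1 array and Ezh2-/- (Ezh2-null) on the other. The series also holds fetal liver progenitors (E14.5) of both genotypes, 1 array each. The labels do not say how the allele was deleted, in which cells or by which Cre, which exons were removed, how the progenitors were isolated or how many animals gave each RNA. With 1 array per genotype no difference has a replicate check, no test was possible, and a gene is counted as higher or lower where the arrays differ at least 2-fold.

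Ezh2 is the main methyltransferase of Polycomb repressive complex 2 (PRC2), which places methyl groups on lysine 27 of histone H3. This mark is found at silent genes, among them regulators of other lineages, Hox genes and cell cycle inhibitors, and PRC1 is the partner complex that binds it. Megakaryocyte-erythroid progenitors give rise to red cells, through GATA1- and KLF1-driven synthesis of haemoglobin, and to platelet-forming megakaryocytes. They normally do not carry the B-cell programme, in which VPREB and lambda5 proteins form the surrogate light chain of the pre-B-cell receptor.

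Levels are linear scanner signals after scaling of the arrays to a common 75th percentile. A probe's level depends on its sequence, so a level is compared between the arrays for the same probe, and a sum over a list only between the arrays. The Ezh2 probe (chromosome 6, 47480307 to 47480366, build mm9) read 35.4 on the wild-type and 70.03 on the null array, a log2 difference of 0.98. Since the deleted part is not known, this probe does not check the genotype, and the arrays are named by their labels throughout. The median difference of all genes was −0.03 on the log2 scale, and among the 12648 genes detected on both arrays it had an SD of 0.59. Of the 15275 genes, 694 (4.54%) exceeded the wild-type level by 2-fold or more and 1167 (7.64%) lay as far below it. A further count past 8-fold gave 44 genes higher and 33 lower. Copies of the same probe on 1 array had a median SD of 0.0749 (wild type) and 0.0999 (null) on the log2 scale, which covers error within an array alone. Where a probe was not well above background on 1 array, the fold is written "at least". It is measured against the lowest detected signal there, or against the probe's own signal if that was higher. Calls were fewest with normexp, a background correction of the raw signals used with an added offset of 50, which compresses dim ratios: 168 of the higher and 194 of the lower genes kept a 2-fold difference. The number of calls that did so is given for the main gene groups. A gene detected on 1 array alone entered through the array where it was high, so list counts are also given over the members detected on both arrays. Those read against 3.34% higher and 5.44% lower among all 12648 such genes.

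The progenitor label was checked against marker genes. Gata1 read 7014 on the wild-type and 7673 on the null array, Gfi1b 1752 and 1384, Tal1 530.1 and 457, and the erythropoietin receptor gene Epor 783 and 992. These regulators of the erythroid and megakaryocytic fates were thus present in both genotypes at less than 2-fold difference. Itga2b, the integrin chain of the megakaryocyte lineage, was not well above background on either array, and neither were the granulocyte genes Elane and S100a8. Of 27 granulocyte and macrophage genes on the array, 11 were measured. Their summed level was 60124 on the wild-type and 58930.2 on the null array, which includes the myeloid integrin gene Itgam at 54129 and 53551. Without Itgam the sum was 5995 and 5379. Whether the very bright Itgam signal is expression or cross-hybridisation cannot be told from these arrays, and the same holds for Csf3r and, in the B-lineage list, for Cplx2. Of the 11 genes 1 was lower on the null array and 0 were higher.

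The probes that carry the main differences are shown by the first 30 of their 60 bases, 5′ to 3′, with G and C in capitals, because lower calls were unevenly spread over probe composition (described last). The deposited files give the sequences. The first 5 belong to B-lineage genes and the next 2 to globins, all brighter on the null array, and the last 7 to genes brighter on the wild-type array.
Vpreb1: aGGGGtaGaaCGtGaGGttttGCaGaGCCt
Vpreb2: aaGaaGaGaatGGaGaGaGaGtGGGaaGGa
Vpreb3: GtCaaCCaCtGtCCtGaGaaCtGtGaGatC
Dntt: aaGCGCatCaatGCCCaCCtGaCtCCtGtG
Pou2af1: GCatCCaaaCaGatttCCtCCaGaGCCtCa
Hbb-bt: ttttCtGCtattGtCtatGCaCaaaGGtta
Hba-a1: taCttCCCtCaCtttGatGtaaGCCaCGGC
Jund: ttttGCtaCGaGtCCaCattCCtGttCCGt
Fos: GGaCtttattttCCaGtaGataGaaatCaa
Fosb: aCtGCCGaCCaCaattCattGaCtCCataG
Tnfaip3: GtGaaatttGCaCaGttGtCtttCaaaGGa
Ago3: GaGataCaCttttGGGtatGGCCaCaCaGt
Sertad2: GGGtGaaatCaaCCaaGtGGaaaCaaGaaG
Bst2: aGGtGaaCtCtGGCaGCtCCatGGtGGtCt
Over the whole probe, G and C made up 45% for Vpreb1, 45% for Dntt, 55% for Hba-a1 and 45% for Jund. They made up 35% for Hbb-bt, 35% for Fos and 35% for Tnfaip3. The probes shown thus ran from 35% to 55% in either direction, but they are a few lead genes. Among all called genes 54.9% of the lower and 39.2% of the higher ones had probes of 40% G and C or less.

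**Figure D1:**
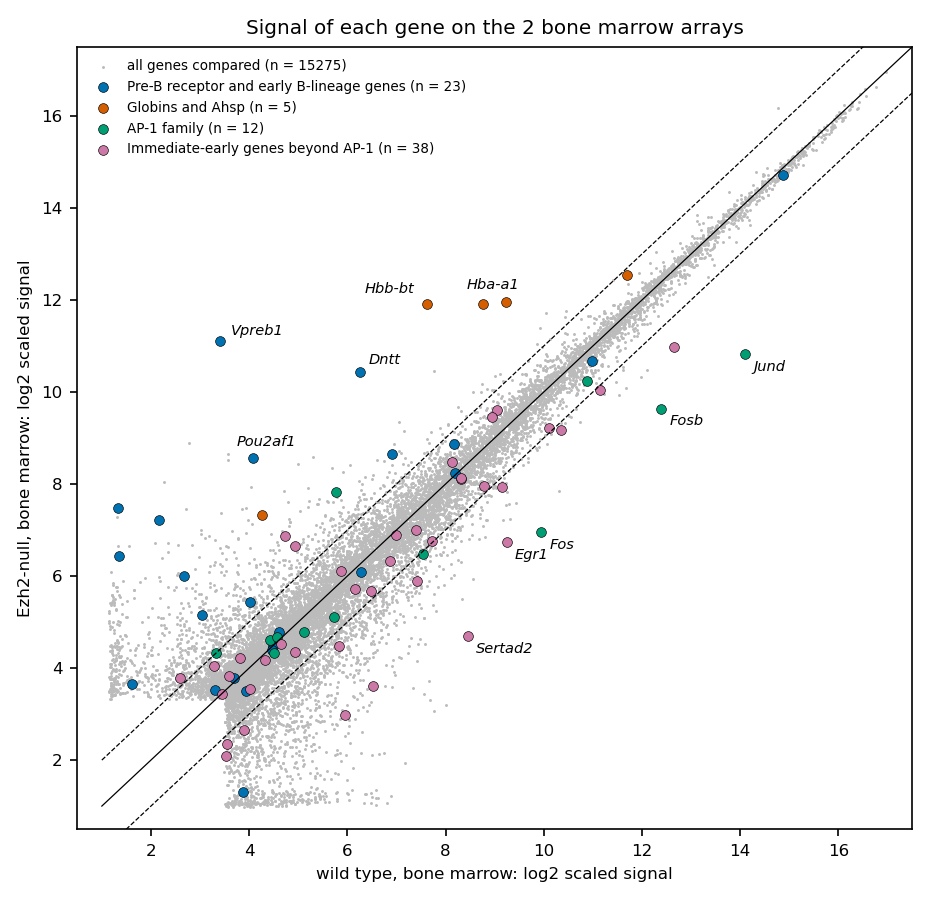
Scaled log2 signal of each of 15275 genes on the Ezh2-null bone marrow array (vertical) against the wild-type array (horizontal), 1 array per genotype; the solid line marks equal signal and the dashed lines a 2-fold difference. B-lineage genes such as Vpreb1 and the globins lie above the upper dashed line, and Jund, Fos, Fosb, Egr1 and Sertad2 lie below the lower one.

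Genes of the pre-B-cell receptor and of early B cells were among those with high ratios on the null array. Vpreb1, a surrogate light chain gene, had the highest ratio of all genes compared and read 10.6 on the wild-type and 2203 on the null array, where it was at least 198-fold higher. Vpreb2, like Vpreb1 on chromosome 16, read 2.50 and 178 (at least 16.05-fold), and Vpreb3 on chromosome 10 read 4.51 and 149 (at least 13.4-fold). All 3 VPREB genes were therefore seen on the null array and not well above background on the wild-type one. The other part of the surrogate light chain, lambda5, was covered by a transcript that the files annotate as immunoglobulin lambda-like polypeptide 1 (chromosome 16, 16861104 to 16861163). It read 4.83 and 263, at least 23.6-fold higher, so the parts of the surrogate light chain differed in the same direction. Signalling parts of the receptor followed: Cd79b read 2.56 and 87.04 (at least 7.83-fold) and Cd79a 16.2 and 43.3 (2.68-fold). The adaptor gene Blnk read 8.23 and 35.5 (at least 3.20-fold).

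Not every B-lineage gene was part of this. Dntt, the template-free DNA polymerase of antigen receptor joining, read 76.6 on the wild-type and 1381 on the null array (18.02-fold higher), and Pou2af1, an octamer-binding coactivator of B cells, 17.01 and 378 (22.2-fold). Cnn3 read 120.0 and 403 (3.36-fold), and both of its probes passed 2-fold. Against these, Pax5, the factor that commits cells to the B lineage, read 77.6 and 67.9, and Ikzf3 12.9 and 13.7. The recombinase gene Rag1, the B-lineage factor gene Ebf1, the interleukin-7 receptor gene Il7r and the heavy chain gene Ighm were not well above background on either array. Of 31 list genes on the array 23 were measured, of which 10 were higher and 0 lower, with a median difference of 0.17 against −0.03 for all genes. Detected on both arrays were 14, of which 4 were higher, beside 3.34% of all genes detected on both. With normexp 8 of the 10 kept 2-fold. Their summed level without the brightest member, Cplx2, was 3073 on the wild-type and 7530.5 on the null array. In bulk RNA a change in the number of cells of a type and a change in RNA per cell cannot be told apart.

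Some T and NK cell genes were higher as well. Thy1, a surface protein of T cells and some progenitors, read 12.55 on the wild-type and 126 on the null array (10.1-fold). The T-cell receptor chain gene Cd3e read 17.2 and 39.96 (2.32-fold), the kinase gene Lck 2.36 and 31.95 (at least 2.87-fold), and the interleukin-2 receptor gene Il2rb 7.10 and 25.7 (at least 2.32-fold). In all, 4 of 14 measured members were higher and 0 lower, of which Thy1 alone kept 2-fold with normexp. Of the 9 detected on both arrays 2 were higher. The summed level was 396 on the wild-type and 666 on the null array. The lymphocyte GTPase genes of the GIMAP family went the same way, with Gimap1 at least 5.69-fold and Gimap6 2.81-fold higher among 4 measured. Itgb7, an integrin chain of homing lymphocytes, read 198 and 505 (2.55-fold), and Lfng, a glycosyltransferase that modifies Notch, 75.97 and 267 (3.52-fold). The part that lymphoid cells play in the other differences was not tested.

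Several genes of MHC class II presentation were lower. H2-DMb1 and H2-DMa, which load peptide onto class II molecules, read 119 and 16.6 (7.19-fold lower) and 224 and 63.8 (3.50-fold). The class II chain gene H2-Aa was at least 3.18-fold lower (31.8 and 6.73), and Ciita, the master activator of the class, 2.05-fold (159.7 and 77.7); the other Ciita probe differed by −0.05 on the log2 scale. Bst2, an interferon-induced membrane protein also used as a marker of plasmacytoid dendritic cells, read 202 and 13.1 and was 15.4-fold lower. Siglech, another marker of these cells and the brightest member of the list, stayed under 2-fold. The summed level of the list was 3102 on the wild-type and 2895 on the null array, and without Siglech 1294 and 1016. The invariant chain gene Cd74 went the other way, at 10.7 and 25.3 (at least 2.27-fold higher). With 5 of 12 measured members lower and 1 higher, the list median was nonetheless 0.00 and the remaining 6 were under 2-fold. Of the 8 detected on both arrays 4 were lower and 0 higher. MHC class I genes differed little: of 26 measured, 24 stayed under 2-fold, and the exceptions were the folding chaperones Canx (3.78-fold lower) and Calr (2.02-fold lower). Of 38 interferon response genes, 4 were higher and 4 lower, led by Rtp4 (4.03-fold higher, 48.5 and 195) and by Bst2 and the signal transducer Stat2 (3.43-fold lower, 63.1 and 18.4).

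Globin genes also had large differences towards the null array. Hbb-bt, an adult beta-globin gene, read 196 on the wild-type and 3886 on the null array (19.8-fold). The probe named for Hbb-b2 read 19.2 and 161 (8.41-fold). The alpha-globin genes Hba-a1 and Hba-a2 read 433 and 3856 (8.90-fold) and 599 and 3949.7 (6.59-fold). The alpha copies are near-identical in sequence, so their probes may read both. Whether the beta-globin probes also read each other's RNA could not be checked. The adult globins thus count as 2 chains rather than 4 independent genes. Ahsp, the alpha-globin chaperone, was already bright at 3324 and stood at 5936 on the null array, a log2 difference of 0.84. Embryonic globin genes were not well above background on either array. All 4 globin calls kept 2-fold with normexp.

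Regulators of erythropoiesis did not all go the way of the globins. Klf1, the activator of adult beta-globin, read 1058 on the wild-type and 3356 on the null array (3.17-fold higher), E2f2, a cell cycle factor of late erythroblasts, 136 and 409 (3.00-fold), and Etv6 13.3 and 48.3 (3.64-fold). Lower were Myb, a factor of immature progenitors, at 409 and 113 (3.63-fold), Gata2, which GATA1 replaces during erythroid maturation, at 262 and 119 (2.21-fold), Nfia (2.65-fold) and Klf3 (at least 2.31-fold). Of 21 measured, 3 were higher, 4 lower and 14 under 2-fold, and 3 of the 7 calls kept 2-fold with normexp (Klf1, E2f2 and Myb). The stem-cell receptor gene Kit read 414 and 289.8, under 2-fold.

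Most haem genes lay slightly above 0, and membrane genes were spread to both sides. Alas2, the first and rate-limiting haem enzyme of red cells, read 32.2 on the wild-type and 78.1 on the null array (2.42-fold), and it alone of 17 haem genes passed 2-fold. This call did not keep 2-fold with normexp. Even so, 13 of the 17 lay above 0, among them Fech, which inserts the iron, at 0.43 on the log2 scale, and the median was 0.34 (between 0.26 and 0.44 under all alternatives). Of 19 membrane genes 3 were higher and 1 lower, with 12 above 0 and 7 below. The anion exchanger gene Slc4a1 read 39.1 and 112 (2.85-fold), Trim10 80.7 and 204 (2.53-fold), and the ankyrin gene Ank1 204 and 478 (2.34-fold). Xk, which carries a blood group antigen, was at least 4.39-fold lower at 43.8 and 2.24. The late red cell genes Epb42 and Rhag were not well above background on either array. Iron genes were split, with the mitochondrial importer Slc25a37 2.04-fold higher by 1 of 2 probes and the transferrin receptor gene Tfrc 2.14-fold lower among 17. Gstt1, a glutathione transferase, read 6.60 and 175 (at least 15.8-fold higher), and Gclc, which makes glutathione, 239 and 87.3 (2.73-fold lower).

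Platelet-lineage genes were mostly higher where they were called. Pf4, a platelet chemokine, read 132 on the wild-type and 421 on the null array (3.18-fold), and the adhesion factor gene Vwf 56.6 and 169 (2.99-fold). Itgb3, the platelet integrin beta chain, was 2.97-fold higher (15.3 and 45.3), with both probes past 2-fold, and Treml1 at least 3.17-fold (9.30 and 35.3). Gp5 was at least 2.85-fold lower (28.5 and 7.52) and Ltbp1 at least 2.23-fold. That made 5 of 16 measured genes higher and 2 lower, around a median of 0.04, and 4 of the 10 detected on both arrays were higher and 0 lower. Of the 7, Pf4 and Vwf kept 2-fold with normexp. Gfi1b and Nfe2, factors of both lineages, were slightly lower at −0.34 and −0.33 on the log2 scale. Other mature-cell lists were small: 2 of 5 mast cell genes were lower, led by the interleukin-33 receptor gene Il1rl1 (at least 9.63-fold, 96.1 and 2.02), and 0 of 7 endothelial genes passed 2-fold.

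**Figure D2:**
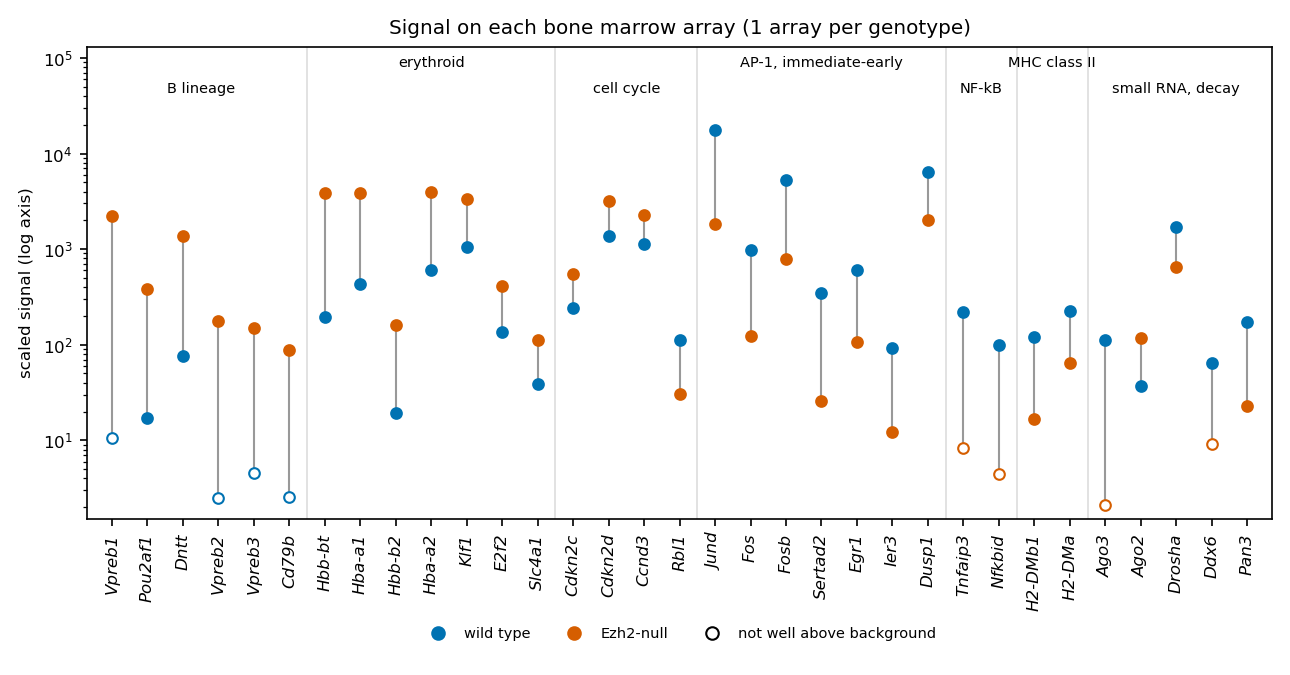
Scaled signal (log axis) of lead genes on the wild-type (blue) and Ezh2-null (orange) bone marrow arrays, 1 array each; open points were not well above background. The VPREB genes and Cd79b are open points on the wild-type side alone, Jund, Fos, Fosb and Dusp1 are lower on the null array, and Ago3 and Tnfaip3 are open on the null side.

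Among cell cycle regulators more calls were higher than lower. Inhibitors of the kinases CDK4 and CDK6 were among them: Cdkn2d read 1381 on the wild-type and 3154 on the null array (2.28-fold) and Cdkn2c 242 and 548 (2.26-fold). The cyclin gene Ccnd3 read 1119 and 2283 (2.04-fold), with both probes past 2-fold. The E2F genes differed among themselves, E2f2 and E2f8 (2.07-fold) being higher and E2f3 at least 2.65-fold lower, and Rbl1, an RB relative, read 111 and 30.6 (3.64-fold lower). Cdkn2a, the classical PRC2-silenced inhibitor, was near the floor at 13.8 and 22.2 (log2 difference 0.69), and Cdkn1a was not well above background on either array. Of 22 measured, 5 were higher and 2 lower, with a median of 0.29 (0.22 to 0.40 under the alternatives), and 5 of the 7 calls kept 2-fold with normexp. Of the 18 detected on both arrays 5 were higher and 1 lower. The proliferation machinery itself differed little: 40 of 44 replication genes and 38 of 42 mitosis genes were under 2-fold, with medians of 0.05 and 0.21. The mitotic kinase gene Aurka was 2.03-fold higher (997 and 2024) and the spindle factor gene Tpx2 2.82-fold lower (41.5 and 14.7). Among MYC network genes Mycn had the highest ratio, at 13.8 and 114 (8.25-fold higher), while Myc read 280.3 and 356.

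Histone genes were spread to both sides. Of 55 measured, 42 lay above 0 and the median was 0.27, yet 6 passed 2-fold upwards and 6 downwards. The linker histone gene H1f2 read 2821 on the wild-type and 1183 on the null array (2.39-fold lower), H2bc4 595 and 236 (2.52-fold) and H2ac18 157 and 41.5 (3.79-fold). H3c8 read 82.3 and 286 (3.47-fold higher) and H4c3 508 and 1059 (2.08-fold). Histone copies of a cluster share much of their sequence, and their counts are not independent.

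Many genes of the immediate-early response, which cells switch on within minutes of a stimulus, were lower on the null array. Jund, a subunit of the AP-1 factor, read 17585 on the wild-type and 1818 on the null array (9.67-fold lower). Fosb read 5344 and 797 (6.70-fold), Fos 982 and 124 (7.94-fold) and Jun 186 and 89.02 (2.09-fold). Of these AP-1 genes all but Jun kept 2-fold with normexp. Fosl2 differed the other way, at 54.4 and 226 (4.15-fold higher), and Junb was dim and level at 22.6 and 20.2. In all 4 of 12 AP-1 genes were lower and 1 higher, with a median of −0.47 that stayed between −0.61 and −0.16. Of the 11 detected on both arrays 4 were lower and 1 higher.

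Beyond AP-1, 10 of 38 immediate-early genes were lower and 2 higher, and 27 lay below 0. Of the 30 detected on both arrays 9 were lower and 2 higher. Sertad2, a cell cycle cofactor, read 351 on the wild-type and 25.9 on the null array (13.6-fold lower), Egr1 606 and 107 (5.68-fold) and Ier3 92.1 and 12.3 (7.51-fold). Dusp1, the phosphatase that ends MAP kinase signalling, read 6444 and 2029 (3.18-fold), and Zfp36l2, which marks AU-rich messages for decay, 2250.3 and 1058 (2.13-fold). Klf factors of this response were lower as well: Klf2 read 1314 and 582 (2.26-fold), Klf10 171 and 59.1 (2.90-fold) and Klf6 62.1 and 7.91 (at least 6.22-fold). The orphan receptor gene Nr4a2 was 2.55-fold and the growth-arrest gene Gadd45a 2.32-fold lower. With the mean of its probes Nr4a2 was at −0.54 on the log2 scale, under 2-fold. Of the 12 calls 9 kept 2-fold with normexp, beside 362 of the 1861 calls over all genes. The exceptions to the direction were Dusp10 at 26.6 and 118 (4.42-fold higher) and the clock gene Per1 at 30.5 and 101 (3.31-fold higher). Zfp36 and Ier2 stayed under 2-fold at −0.88 and −0.80.

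Each call in the NF-kB pathway list came from a probe detected on 1 array alone. Tnfaip3, the enzyme that restrains NF-kB signalling, read 218 on the wild-type and 8.41 on the null array (at least 21.9-fold lower), and the nuclear inhibitor gene Nfkbid 100.3 and 4.40 (at least 10.04-fold). Nfkbiz, another nuclear relative of these inhibitors, went the other way (at least 2.20-fold higher, at 24.4 on the null array). Nfkbia, the classical inhibitor, read 173 and 86.97, just under 2-fold at −0.99. The factor genes themselves were level, Rela at 0.18 and Nfkb1 at −0.13. With the kinase-complex genes Ikbkg (at least 3.34-fold lower) and Map3k7 (at least 2.92-fold), 4 of 26 members were lower and 1 higher, all 5 as bounds, with a median of −0.33. By the mean of its probes Map3k7 was 0.60 higher on the log2 scale. Among the 18 members detected on both arrays none passed 2-fold.

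Stress and protein folding genes were lower in part. Of 68 chaperone genes, 11 were lower and 3 higher, and of the 61 detected on both arrays 8 and 2. Hspa4 read 459.5 and 149 (3.08-fold lower), although its 3 probes ranged from −1.62 to −0.10 on the log2 scale. The endoplasmic reticulum chaperone gene Hspa5 read 207 and 99.5 (2.08-fold), and the chaperonin gene Cct4 238 and 113 (2.11-fold). In the ATF4 and unfolded protein response list 5 of 25 were lower and 1 higher, and of the 23 detected on both arrays 3 and 1. Sesn2 was at least 7.27-fold lower (84.7 and 11.7) and Ern1, a stress sensor, 2.70-fold higher (33.2 and 89.6). Atf4 itself was bright and level at 20589 and 19350.2. Of 11 lower chaperone calls 2 kept 2-fold with normexp.

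In the lists of small RNA processing and of mRNA decay more calls were lower than higher. Ago3, an Argonaute gene, read 112 on the wild-type and 2.09 on the null array (at least 11.2-fold lower), and Drosha, the nuclease that cuts primary miRNAs, 1698 and 651 (2.61-fold), with both probes past 2-fold. The nuclear exporter gene Xpo5 was 2.43-fold lower (49.5 and 20.4), the silencing scaffold gene Tnrc6a at least 3.14-fold and the helicase gene Ddx6 at least 6.38-fold. Dicer1 and Dgcr8, also needed to make miRNAs, lay at −0.82 and −0.93, under 2-fold. Ago2 read 36.9 and 117 (3.19-fold higher) by 1 of its 4 probes. Another Ago2 probe, detected on the wild-type array alone, lay at −1.49 on the log2 scale, and the mean of its probes was 0.19, under 2-fold. The list had 5 of 12 measured members lower, 1 higher and a median of −0.88 (−0.88 to −0.36 under the alternatives). Ago3, Ddx6 and Tnrc6a were detected on the wild-type array alone, and of the 8 members detected on both arrays 2 were lower and 1 higher. Ago3 and Drosha kept 2-fold with normexp.

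In the decay list 9 of 33 were lower and 3 higher (8 and 1 of the 26 detected on both arrays), with a median of −0.48 (−0.83 to −0.24). Pan3, of a poly(A)-shortening complex, read 174 on the wild-type and 23.02 on the null array (7.55-fold lower), and Pnrc2 67.1 and 16.7 (4.01-fold). Subunits of the CCR4-NOT deadenylase differed in direction: Cnot1, Cnot2 and Cnot4 were 2.80-fold, 2.81-fold and 2.62-fold lower, and Cnot3 was at least 2.78-fold higher. Upf1, the helicase of nonsense-mediated decay, read 926 and 2127 (2.30-fold higher). The median probe of this list had 36.7% G and C, against 45% over all genes. With the trend on probe composition removed 7 members were lower and 3 higher. Of the 12 calls 3 kept 2-fold with normexp (Pan3, Zfp36l2 and Upf1).

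Zinc finger genes of the Zfp family were lower more often than genes in general. Of 163 measured, 25 were lower (15.3%) and 2 higher (1.23%), and the median was −0.20. Detected on both arrays were 129, of which 15 were lower and 2 higher, beside 5.44% and 3.34% of all genes detected on both. Zfp994 read 119 on the wild-type and 2.33 on the null array (at least 11.9-fold), Zfp263 89.6 and 22.999 (3.90-fold) and Zfp217 77.2 and 19.9 (3.87-fold). Zfp526 read 43.3 and 134 (3.09-fold higher). Of the 27 calls 5 kept 2-fold with normexp. Their levels were low, with a median of 46.1 on the wild-type array.

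**Figure D3:**
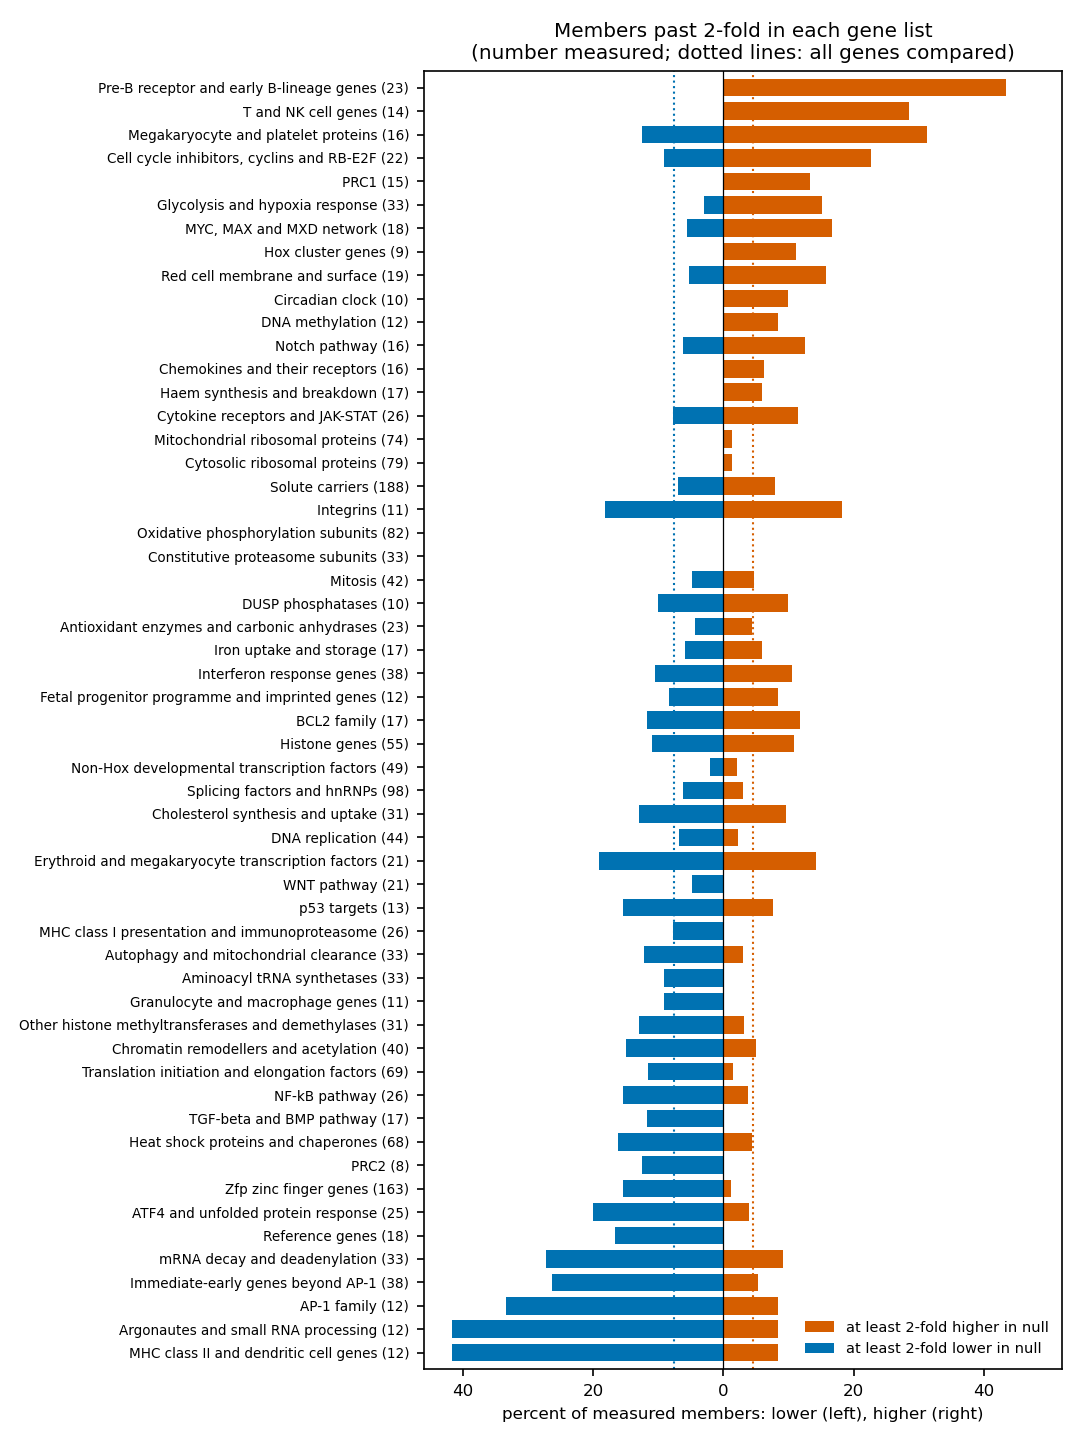
Percent of measured members past 2-fold towards the Ezh2-null (right, orange) and the wild-type array (left, blue), for gene lists with 8 or more measured members (number in parentheses); dotted lines mark 4.54% and 7.64%, the shares over all 15275 genes. B-lineage genes have the longest bar on the right, class II, small RNA, AP-1, decay and immediate-early genes the longest on the left, and oxidative phosphorylation and proteasome genes have none.

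The lists of the Polycomb machinery and of Hox genes were small, and their shares of calls were near that of all genes. Calls made up 12.5% of the PRC2 genes measured (lower), 13.3% of PRC1 (higher) and 11.1% of Hox genes (higher). Over all genes 12.2% were called, 4.54% higher and 7.64% lower. Eed, a PRC2 core subunit, read 284 on the wild-type and 149 on the null array (log2 difference −0.93), Ezh1 123 and 94.2, and the histone binder Rbbp4 5225 and 5306. Only the accessory gene Mtf2 passed 2-fold of 8 PRC2 genes measured, being at least 4.60-fold lower (45.9 and 7.26). In PRC1, Cbx2 was 2.94-fold higher (31.4 and 92.2) and Pcgf1 2.25-fold (48.5 and 109) among 15. Of 39 Hox genes on the array 9 were measured, of which Hoxa3 was at least 4.88-fold higher (5.70 and 54.2) and Hoxa9 read 16.01 and 10.6. Of 137 other developmental transcription factors 49 were measured and 47 stayed under 2-fold. The exceptions were Eya2 at 16.5 and 246 (14.9-fold higher) and Vax2 at 274 and 132 (2.08-fold lower). These shares of 2.04% on each side lay below those of all genes. None of the Mtf2, Cbx2, Pcgf1 and Hoxa3 calls kept 2-fold with normexp, and that of Eya2 did.

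Other chromatin genes were mixed. Of 40 remodeller and acetylation genes 6 were lower (15%) and 2 higher (5%), beside 7.64% and 4.54% of all genes. Of the 29 detected on both arrays 2 were lower and 0 higher, near the 5.44% and 3.34% of all such genes. Of the 8 calls 2 kept 2-fold with normexp. Arid1a, a SWI/SNF subunit, was at least 14.4-fold lower by its brightest probe (144 and 3.82), while its other probe, detected on both arrays, lay at −0.43 on the log2 scale. The remodeller gene Chd2 was at least 6.92-fold lower (69.1 and 3.55). Chd4 read 168 and 67.8 (2.48-fold). Among 31 other histone methyltransferase and demethylase genes 4 were lower (12.9%) and 1 higher (3.23%), led by Setd1a (2.96-fold lower, 49.6 and 16.8). Of these 5 calls 0 kept 2-fold with normexp. Uhrf2, a relative of the DNA methylation cofactor UHRF1, was 3.47-fold higher by 1 of its 2 probes.

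Large housekeeping groups were bright and nearly level. Of 79 cytosolic ribosomal protein genes 78 were under 2-fold, as were all 82 oxidative phosphorylation and all 33 proteasome genes measured and 73 of 74 mitochondrial ribosomal protein genes. Their medians were 0.00, 0.04, −0.01 and 0.01. Their median levels on the wild-type array were 14222, 3357, 1985 and 734, in the range where under 1% of all genes passed 2-fold on each side (described last), so they give no scale for dimmer groups. Of 69 translation factors 8 were lower and 1 higher, and of the 65 detected on both arrays 7 and 1. Eif5, which triggers start codon recognition, read 261 and 87.9 (2.97-fold lower), with both probes past 2-fold, and Eif3c 1503 and 704 (2.14-fold), or −0.88 on the log2 scale with the mean of its probes. Of 33 tRNA synthetase genes 3 were lower (9.09%, near the share over all genes) and 0 higher, led by Iars (2.89-fold), and 0 of the 3 kept 2-fold with normexp. Splicing factors had 6 of 98 lower and 3 higher, close to the shares over all genes. Reference genes were not all level either: Hprt read 824 and 381 (2.16-fold lower), Tbp 67.8 and 24.6 (2.75-fold), while Gapdh read 15262 and 15796 and Actb 3229.9 and 3633.

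Metabolic and transport lists held calls on both sides. In the list of glycolysis and hypoxia response genes 5 of 33 were higher and 1 lower, and of the 28 detected on both arrays 3 and 1. Pkm, pyruvate kinase, was at least 10.6-fold higher (9.08 and 117), Aldoc at least 5.76-fold (11.3 and 64.9) and the lactate carrier gene Slc16a3 3.20-fold (13.7 and 43.7). Cholesterol genes were split, 3 higher and 4 lower of 31, with Msmo1 3.76-fold lower (135 and 35.9). Among 188 solute carriers 15 were higher and 13 lower. The taurine carrier gene Slc6a6 read 161 and 11.8 (13.6-fold lower). In the autophagy list Tfeb, the regulator of lysosomal genes, read 21.7 and 121 (5.57-fold higher), and the receptor gene Optn 122 and 17.9 (6.78-fold lower). Of the signalling lists, WNT had 1 call of 21 genes (4.76% lower) and TGF-beta 2 of 17 (11.8% lower). Notch had 3 of 16 (12.5% higher and 6.25% lower). Over all genes 4.54% were higher and 7.64% lower. The receptor gene Tgfbr3 was at least 4.30-fold lower, and the signal carrier gene Smad2 at least 4.70-fold. Among cytokine pathway genes the interferon-gamma receptor gene Ifngr1 read 525 and 239.5 (2.19-fold lower).

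Outside the lists, several genes with high ratios on the null array were near the floor in wild type. Fxyd6, a regulator of the sodium pump, read 11.9 on the wild-type and 365 on the null array (30.7-fold). The X-linked neighbours Bex1 and Bex2 read 24.4 and 487 (19.9-fold) and 2.47 and 156 (at least 14.02-fold). The sulfotransferase gene Chst1 read 11.8 and 401 (at least 33.98-fold) and the retinal reductase gene Dhrs3 15.2 and 179 (11.7-fold). A few started higher, such as the phosphodiesterase gene Pde2a at 39.6 and 385 (9.72-fold). Sting1, the adaptor of cytosolic DNA sensing, read 26.1 and 229.5 (8.78-fold) and Evl, an actin regulator, 8.13 and 128 (at least 11.6-fold). On the other side the kinase gene Taok3 read 109 and 12.2 (8.92-fold lower), the RNA cap methylase gene Tgs1 123 and 15.1 (8.16-fold) and the selenium carrier gene Selenop 78.2 and 10.7 (7.35-fold). Hlcs, which attaches biotin to carboxylases, was at least 17.3-fold lower (188 and 10.9), and Ssb, an RNA-binding protein, at least 10.8-fold (108 and 4.45).

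Genes with several probes gave a check within the arrays. Among 126 called genes with 2 or more probes detected on both arrays, all other probes went the same way for 91 (72.2%) and also passed 2-fold for 29 (23.02%). Of 50 higher genes 11 had every probe past 2-fold, and of 76 lower genes 18 did. Acp5, an acid phosphatase, read 107 on the wild-type and 364 on the null array (3.41-fold higher), with its probes at 1.77 and 1.85 on the log2 scale. Tmem40 read 121 and 342 (2.83-fold) and the endosomal sorting gene Hgs 121 and 274 (2.26-fold). On the lower side Armc1 read 233 and 74.9 (3.11-fold), Acsl1, which activates fatty acids, 172 and 67.6 (2.54-fold), and the noncoding RNA A130040M12Rik 4403 and 1431 (3.08-fold). Drosha, Eif5, Cnn3, Itgb3 and Ccnd3, given above, belong to the same set. Most single-probe calls lack this check.

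Promoters are shown for lead genes of the groups above. They are the 250 bases before the start of each gene on build GRCm38.p6, from RefSeq, with the matches named for each in capitals and any other match in lower case. For Vpreb1 (chr16:16869256-16869505, minus strand) and Vpreb2 (chr16:17980315-17980564, plus strand) these are the E-box CAGGTG, a motif bound by E proteins such as the product of Tcf3.
Vpreb1: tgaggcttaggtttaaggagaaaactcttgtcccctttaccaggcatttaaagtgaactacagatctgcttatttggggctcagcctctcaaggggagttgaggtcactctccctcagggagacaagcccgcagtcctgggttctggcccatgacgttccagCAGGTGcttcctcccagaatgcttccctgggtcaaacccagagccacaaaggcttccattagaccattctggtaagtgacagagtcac
Vpreb2: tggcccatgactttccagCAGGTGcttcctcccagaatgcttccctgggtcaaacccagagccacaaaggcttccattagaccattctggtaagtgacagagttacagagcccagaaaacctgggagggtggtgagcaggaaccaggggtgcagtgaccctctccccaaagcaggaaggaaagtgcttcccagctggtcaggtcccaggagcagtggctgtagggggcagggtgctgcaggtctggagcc
The windows share an identical run of 91 bases that holds the E-box, 88 bases before the Vpreb1 start and 232 before that of Vpreb2. The E-box was found on either strand in the windows of 4 of the 8 higher B-lineage genes with a window (Blnk, Cd79a, Vpreb1 and Vpreb2), against 18.96% of 8949 compared genes. Tcf3 read 290.1 and 470.1, under 2-fold, and its 2 probes differed in direction.

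For Hbb-bt (chr7:103813924-103814173, minus strand) the capitals mark CCTCACCC, a match to CCNCNCCC, which KLF1 can bind, and TATAAA. For Fos (chr12:85473640-85473889, plus strand) they mark TATAAA.
Hbb-bt: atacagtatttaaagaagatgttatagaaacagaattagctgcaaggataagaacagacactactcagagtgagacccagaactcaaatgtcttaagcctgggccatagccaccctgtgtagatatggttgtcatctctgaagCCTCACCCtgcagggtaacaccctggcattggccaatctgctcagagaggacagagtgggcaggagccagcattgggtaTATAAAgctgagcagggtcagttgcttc
Fos: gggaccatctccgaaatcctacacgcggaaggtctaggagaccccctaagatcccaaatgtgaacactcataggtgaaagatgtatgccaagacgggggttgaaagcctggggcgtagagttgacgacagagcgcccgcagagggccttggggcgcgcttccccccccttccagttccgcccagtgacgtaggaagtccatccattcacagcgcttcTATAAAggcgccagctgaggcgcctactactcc
CCNCNCCC was found in 4 of 8 higher erythroid genes (Alas2, E2f2, Etv6 and Hbb-bt), in 3 of the 8 B-lineage genes (Cd79a, Cnn3 and Vpreb2) and in 8 of 11 lower AP-1 and immediate-early genes, Fos among them, against 64.3% of the compared genes. The cyclic AMP response element TGACGTCA was found in 1 of 11 lower AP-1 and immediate-early genes (Dusp1), against 2.72%, and TATAAA in 2 (Fos and Nr4a2), against 9.25%. The serum response element motif CArG was in none of the 11 windows of 250 bases, and in 1.61% of compared genes. Sequence further upstream was not searched, so these windows cannot show whether the genes lack the motif. A match is a description of these letters alone.

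Calls were not evenly spread over levels and probes. Among genes detected on both arrays, the brightest of 5 bins of level, with means above 498, had 0.79% higher and 0.95% lower, while the middle bin had 6.12% and 9.63%. Jund, Fosb, Dusp1, Klf1, Hbb-bt, Hba-a1 and Hba-a2 were among the 24 higher and 29 lower genes of the brightest bin. Lower calls were fewer with higher G and C content of the probe, from 9.92% at up to 35% to 2.51% between 50% and 55%, and higher calls less, from 3.75% to 2.86%. Probes far from the transcript start also held more calls on both sides, 1.69% higher and 2.49% lower in the lowest of 5 bins of position against 5.08% and 8.97% in the highest. The median probe had 45% G and C over all genes, 43.3% among higher and 40% among lower genes. With the trend on composition removed, 707 genes were higher and 1123 lower. What part composition and position had in the lower calls was not tested further.

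**Figure D4:**
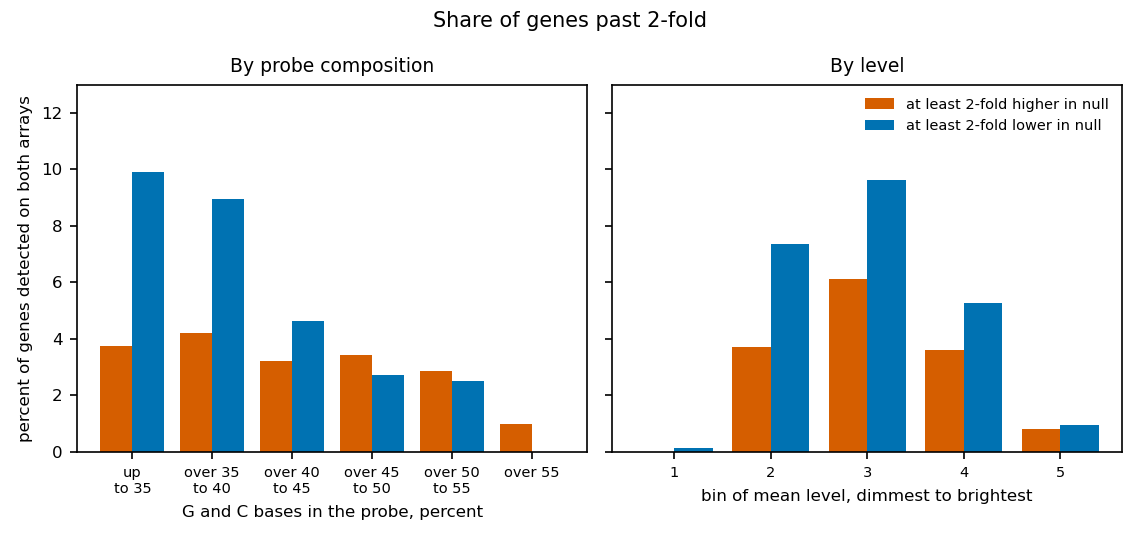
Percent of genes detected on both bone marrow arrays that were at least 2-fold higher (orange) or lower (blue) in the Ezh2-null sample, by the G and C content of the probe (left) and by 5 bins of mean level (right). Lower calls drop from 9.92% to 2.51% between probes of up to 35% and of 50 to 55% G and C, and the brightest bin has under 1% on each side.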

How the data were processed

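RNA of bone marrow progenitors, wild type and Ezh2-null, was measured on 1 array each. Per the labels, 250 ng of total RNA was amplified and labelled with Cy3. The deposited values are Feature Extraction 10.7.3.1 output: per the file headers, the processed intensity was background-subtracted and detrended within the array, with no step between arrays. The mean and background intensity columns, used with normexp, were raw readings, per the file headers. The deposited flags take the values 0 or 1. The authors' series table holds the same processed intensity, linear and not centred, within 0.496% of the scanner files.

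Control and outlier spots (95 and 135) were left out and no spot was saturated. Spots were averaged (39418 probes), and log2 values were scaled to a common 75th percentile over 12874 probes detected on all 4 arrays. A probe was detected where most of its spots were well above background. The probe with the highest mean stood for a gene. The floors used for bounds were 11.1 (wild type) and 9.99 (null). Names were updated through RefSeq (GRCm38.p6), and 9248 of 39418 probes kept the file's name. Probe coordinates are mm9. No test was possible with 1 array per genotype, and their number limits the precision. Genes were called at 2-fold. Members and lists were chosen with earlier results of these data known. Within lists, members past 2-fold were named by size, with other members for contrast, and a few eligible genes are not reported here. Outside them, the largest differences held by normexp and quantile normalization, the largest bounds and genes with all probes past 2-fold were eligible. limma 3.58.1 (R 4.3.3) gave normexp (offset 50). Python 3.11.15 was used otherwise, and the counting was tested on simulated data.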

Additional observations from a re-analysis of the deposited data

Results flagged for a closer look

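The genes below were at least 2-fold apart by genotype on the bone marrow arrays and at least 2-fold apart the other way in fetal liver. The value given is the log2 difference in bone marrow minus that in fetal liver, each as null minus wild type. The difference between the sources was not tested, since each combination has 1 array, and a value that includes a bound is a lower limit in size. The 2 fetal liver arrays were also unlike each other. The wild-type array had 15363 probes detected and a floor of 19.3, the null array 18281 and 12.95. Copies of the same probe had a median SD of 0.147 (wild type) and 0.0979 (null). The part this had in the fetal liver differences was not tested.

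The 4 globin genes called were higher in null bone marrow and lower in null fetal liver, with values of 5.50 for Hbb-bt, 5.47 for Hba-a1, 4.78 for Hba-a2 and 4.36 for Hbb-b2. Alas2, the first haem enzyme, had 2.85 and the glutathione transferase gene Gstt1 6.10. The regulator genes of immature progenitors Myb and Gata2 were on the other side, Myb at −3.88 and Gata2 at −2.53, and so was the transferrin receptor gene Tfrc at −2.84. For Vpreb1, detected in wild-type fetal liver and in null bone marrow, the value was 10.45. Lfng, the Notch glycosyltransferase gene, had 4.80, the acid phosphatase gene Acp5 3.54, the cell cycle inhibitor gene Cdkn2c 2.26 and the death-promoting gene Bcl2l11 4.62. The histone genes H3c8 and H4c3 had 4.62 and 3.33.

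Of the 14 AP-1 and immediate-early genes lower in null bone marrow, 4 were at least 2-fold higher in null fetal liver and the other 10 were not. The share of all 1167 lower genes that did so is not given here, so this count cannot be called particular to these genes. The 4 had −6.69 for Klf6, −6.07 for Sertad2, −5.55 for Fosb and −2.64 for Zfp36l2. Among stress and folding genes these were Sesn2 at −5.73, Canx at −4.44 and Hspa5 at −2.54. Among genes of small RNA processing and decay the values were −4.20 (Ddx6), −3.64 (Tnrc6a), −3.41 (Drosha) and −2.78 (Xpo5), and the deadenylase genes −5.33 (Cnot4), −4.72 (Cnot2) and −2.76 (Cnot1), with Pnrc2 at −4.34. Among genes that handle RNA or make protein they were −6.28 for Ssb, −4.83 for Tgs1, −3.81 for Eif5, −3.45 for Eif3c and −3.71 for Iars.

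Chromatin and transcription genes on this side were Mtf2 (−5.13), Chd4 (−2.69), Zfp217 (−4.43), Zfp263 (−3.55) and Vax2 (−3.16). Signalling and surface genes were Il1rl1 (−6.02), Smad2 (−4.33), Map3k7 (−4.25), Tgfbr3 (−4.08) and Itgb2 (−3.21). The remaining genes were Selenop (−4.32), Msmo1 (−4.30), Tpx2 (−3.72), Gclc (−3.32), Armc1 (−3.28), Rab2a (−4.40), Rab18 (−2.11) and the reference gene Hprt (−2.48).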

How the results depend on the processing

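Counts of 694 higher and 1167 lower genes became 168 and 194 with normexp, 350 and 520 with a pseudocount of 16, 423 and 688 when detection on both arrays was required, and 1807 and 3163 without the background filter. Normexp with its offset of 50 and the pseudocount shrink ratios of dim probes by construction, and the other filters change how many genes enter (12648 and 31703). Under the 5 other ways of scaling, the mean of all probes, the probe nearest the 3′ end, the series table and the removal of the trend on probe composition (chosen after seeing the data), the counts lay between 667 and 840 higher and between 979 and 1149 lower, or 1167 with the series table. Higher genes made up 37.3% of the calls, and 46.2% when the percentile was taken over all probes. Of the 170 called genes named here, 90 kept their side of 2-fold under every setting with a value, 75 fell under 2-fold with normexp and 40 with the pseudocount. With the percentile over all probes 11 fell under it (Bnip3, Calr, Cct4, Ciita, Eif3c, Hspa5, Jun, Rab18, Tfrc, Vax2 and Zfp36l2). The gene that turned was Map3k7, at 0.60 with the mean of its probes, and the cause was not tested. No paired analysis was possible because each genotype has 1 bone marrow array. Leaving out an array was not possible for the same reason. Dim signals limit the precision. A difference is a bound where the probe was not well above background on 1 array. Probes detected on both arrays near the floors of 11.1 and 9.99 gave folds that are not bounds. Such folds depend on the background correction: Fxyd6 went from 4.94 to 2.81 on the log2 scale with normexp.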

Other observations

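Some further groups are not part of the comparisons above. Among 17 BCL2 family genes, which set the threshold for cell death, the main survival genes were level: Mcl1 read 317 and 279, and Bcl2l1 420.4 and 564. The death-promoting genes Bcl2l11 (at least 2.85-fold higher) and Bok (at least 3.76-fold) read 31.6 and 41.8 on the null array, and Bnip3l, which directs mitochondria to autophagy in maturing red cells, was 2.90-fold lower (78.4 and 27.1). Bnip3, its relative, read 218 and 103 (2.12-fold lower), with both probes past 2-fold. None of these calls kept 2-fold with normexp. In the p53 list, Phlda3 read 137 and 285 (2.08-fold higher), and 10 of 13 genes stayed under 2-fold.

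The paralogs Rab2a and Rab2b, which act between the endoplasmic reticulum and the Golgi, were both lower: Rab2a read 100.2 and 23.7 (4.23-fold) and Rab2b 34.8 and 10.8 (at least 3.23-fold). Rab18 read 919 and 440.3 (2.09-fold lower) and Rab40c 35.4 and 80.3 (2.27-fold higher). Of the integrins, Itgb2, the leukocyte beta chain, read 417 and 163 (2.55-fold lower), opposite to Itgb7 and Itgb3. The imprinted genes Grb10 and Phlda2 also differed in opposite directions, Grb10 at 2.31 and 42.6 (at least 3.84-fold higher) and Phlda2 at 99.1 and 34.6 (2.86-fold lower). Of these and the RAB calls, Itgb2 and Itgb7 kept 2-fold with normexp.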
